A study of Homo sapiens with 2 samples.

Results

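The 36 genes described here encode proteins that carry a cell through mitosis: cyclins and kinases, checkpoint and kinetochore proteins, spindle motors and microtubule binders, cytokinesis proteins, and the chromosome proteins TOP2A and MKI67. They form a named list that was matched by symbol, and 36 of 36 were found among the 36601 genes of the files. The cells were HepaRG, an established human hepatic line supplied in a terminally differentiated state. They were cultured for 7 days, given 0.1% DMSO (the vehicle) for 24 h, treated with transcription and translation inhibitors during trypsin dissociation, fixed, and profiled with a 10x Genomics 3′ kit. The study profiled chemically stressed cultures too, but the 2 libraries used here are both vehicle, so no treatment was compared. Both carry the label of biological replicate 1, although their titles number them 1 and 2. SDs below therefore describe how far these libraries differ from each other, possibly for technical reasons alone. The p-values set differences between cell classes against the scatter of those differences over these 2 libraries. The fit estimates that scatter for a gene largely from all genes tested together. The p-values do not cover the spread between independent cultures.

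Filters left 4454 cells in replicate 1 and 4894 in replicate 2, at median depths of 17568 and 10407 UMIs (unique molecules counted) per cell. Cells were placed in 3 classes in each library alone. ALB-high cells had at least 50 ALB UMIs per 10000. They numbered 304 (6.83%) and 395 (8.07%) in replicates 1 and 2. Mesenchymal-like cells were the top 20% by the mean log level of COL3A1, SPARC, LUM and PDGFRB, and numbered 889 and 967. The remaining cells numbered 3259 and 3520, and 2 and 12 cells over both limits were left out. These classes are ranges cut from continuous levels: 770 (17.3%) and 817 (16.7%) of cells lay within 0.1 of the mesenchymal score limit. With ALB itself left out, 16 hepatocyte markers summed to 13080 and 12503 CPM (UMIs scaled to a total of 1000000) in ALB-high cells, against 1038 and 1113 CPM in remaining cells, although APOA2 was under 1 CPM in ALB-high cells. With the 4 genes of the score left out, the other 8 mesenchymal markers summed to 220 and 218 CPM in mesenchymal-like cells against 101 and 107 CPM in remaining cells. Of these 8, DCN, a matrix proteoglycan, stood at 126 and 127 CPM against 31.1 and 31.6 CPM, and COL1A2, THY1 and VIM were under 1 CPM in mesenchymal-like cells. A list of 6 biliary markers was also higher in mesenchymal-like cells, at 954 and 943 CPM against 607 and 615 CPM in remaining cells. Only 1 of these 6 reached 50 CPM in either class. The name of the class therefore stands for its score and not for a settled cell type. The submitters label the cells as hepatocytes; the 16 markers were at their highest in the ALB-high class.

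Mitotic genes are switched on together late in the cell cycle, after DNA replication, and their products are destroyed as the cell divides. In resting cells their promoters are held off by the DREAM complex, which binds a short element called the CHR; in dividing cells B-MYB and FOXM1 act through the same element, often beside CCAAT boxes bound by NF-Y. Adult hepatocytes in normal liver rarely divide. HepaRG cells proliferate as bipotent progenitors before they are differentiated into hepatocyte-like and biliary-like cells.

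The promoters of the members share these letters. RefSeq windows on GRCh38.p14, from 250 bases before to 50 bases after the start of the gene, were found for 32 of the 36 genes; AURKA, TTK, TPX2 and UBE2C were not matched. TTTGAA, a form of the CHR, occurred on either strand, where its reverse complement is read as TTCAAA, in 23 of 32 members (71.9%) and in 15.4% of all 27305 promoters. CCAAT, which is read as ATTGG from the opposite strand, occurred in 25 of 32 members (78.1%) and 35.7% of all promoters, and both motifs in 19 of 32 (59.4%) against 6.08%. Promoters of 47 S phase genes held TTTGAA in 2 cases (4.26%). They held GCGGGAA, a form of the E2F motif that is read as TTCCCGC from the opposite strand, in 22 cases (46.8%), and the members held it in 2 of 32 (6.25%), against 6.56% of all promoters. These are matches of letters and were not tested for binding. The 120 bases before the RefSeq start are shown for 6 members that the results below turn on, with TTTGAA or TTCAAA and CCAAT or ATTGG in capitals. Some adjoin or overlap and run together. GENCODE 29 places the start of CCNB1, PLK1 and HMMR upstream of these stretches and those of CCNB2 and ANLN inside them.
CCNB1 (chr5:69167030-69167149, plus strand): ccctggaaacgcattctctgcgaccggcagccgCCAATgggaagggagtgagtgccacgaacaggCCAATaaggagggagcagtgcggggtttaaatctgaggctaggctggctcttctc
CCNB2 (chr15:59105026-59105145, plus strand): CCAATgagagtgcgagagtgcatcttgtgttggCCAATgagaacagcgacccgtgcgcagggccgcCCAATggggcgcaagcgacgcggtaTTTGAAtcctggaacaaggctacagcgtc
PLK1 (chr16:23678769-23678888, plus strand): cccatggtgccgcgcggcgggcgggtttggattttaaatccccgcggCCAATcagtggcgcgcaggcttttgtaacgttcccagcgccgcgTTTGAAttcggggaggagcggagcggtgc
HMMR (chr5:163460512-163460631, plus strand): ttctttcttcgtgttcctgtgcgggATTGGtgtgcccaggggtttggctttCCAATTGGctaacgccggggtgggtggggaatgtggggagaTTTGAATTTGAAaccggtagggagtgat
ANLN (chr7:36389742-36389861, plus strand): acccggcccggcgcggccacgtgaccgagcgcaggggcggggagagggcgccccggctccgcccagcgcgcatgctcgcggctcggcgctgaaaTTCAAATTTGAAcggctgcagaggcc
MKI67 (chr10:128126424-128126543, minus strand): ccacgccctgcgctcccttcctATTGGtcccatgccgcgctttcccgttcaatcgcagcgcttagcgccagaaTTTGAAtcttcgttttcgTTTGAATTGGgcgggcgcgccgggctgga
CCNB2, which was close to undetected in the cells, and PLK1, which was readily counted, both held TTTGAA 29 bases before the start with CCAAT boxes upstream of it. CCNB1 held 2 CCAAT boxes and no TTTGAA in these letters. ANLN held TTCAAA directly followed by TTTGAA and no CCAAT box in this stretch. HMMR held 2 adjoining TTTGAA copies.

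Summed over the 36 genes, mitotic transcripts made up 0.358% and 0.352% of all UMIs in replicates 1 and 2. That sum was 1475 and 1272 CPM in ALB-high cells, 3397 and 3542 CPM in mesenchymal-like cells, and 3865 and 3816 CPM in remaining cells. The ALB-high values lay below those of both other classes in both libraries. The mesenchymal-like values lay below the remaining values, by less than the gap to ALB-high cells. The means were 1373 ± 143, 3470 ± 102 and 3841 ± 34.6 CPM (SD, n = 2). The median gene stood at 67.6 and 64.7 CPM over all cells. Each UMI marks the 3′ end of 1 molecule, so CPM is not divided by transcript length, but genes can still differ in how well their ends are captured.

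**Figure D1:**
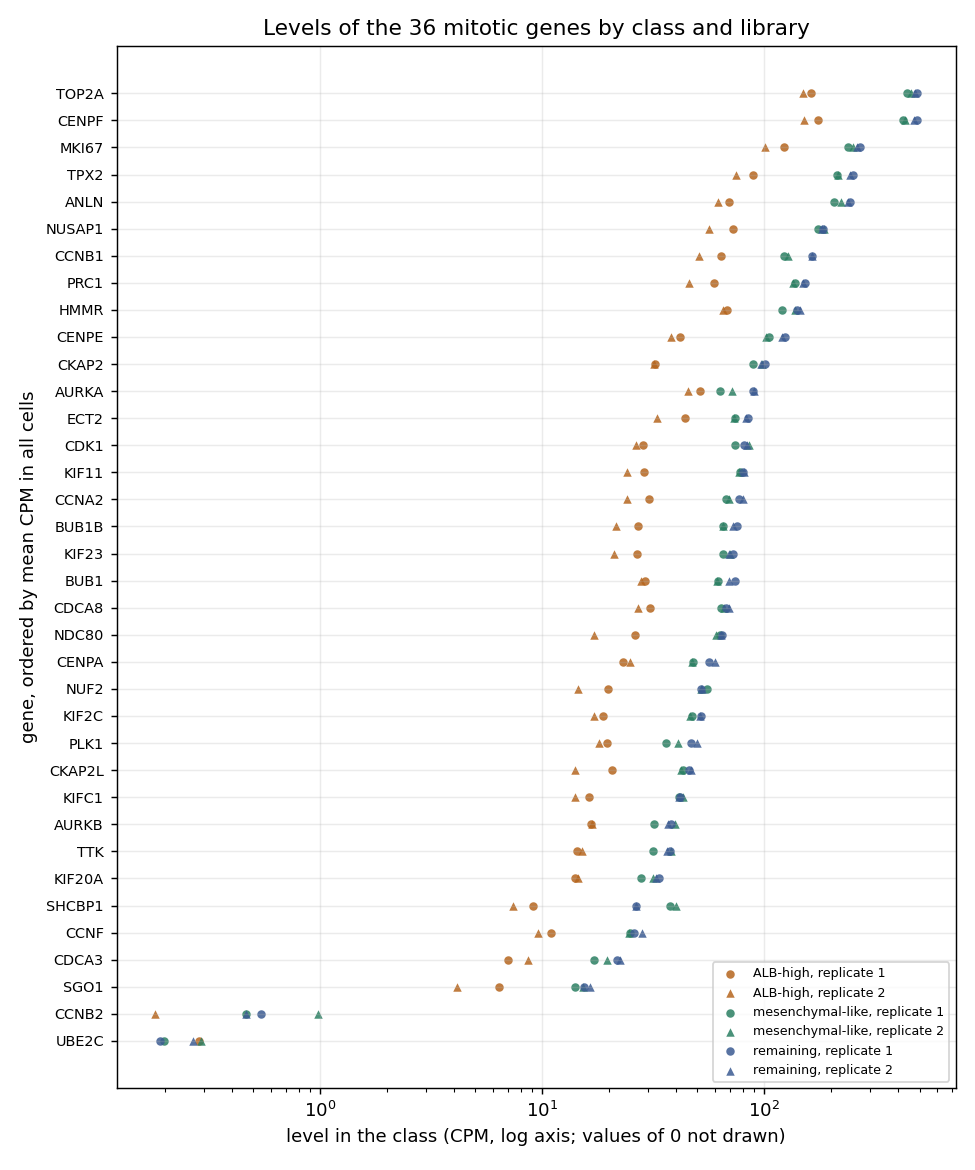
Level of each mitotic gene (CPM, log axis) in ALB-high, mesenchymal-like and remaining cells; circles are replicate 1 and triangles replicate 2, and genes are ordered by mean CPM over all cells. ALB-high points lie to the left for nearly every gene, and CCNB2 and UBE2C sit below 1 CPM, far under SGO1, the next lowest.

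The order of the genes was alike in the libraries. Across the 36 genes, Spearman's rank correlation between replicates 1 and 2 was 0.998 over all cells, 0.979 in ALB-high, 0.992 in mesenchymal-like and 0.999 in remaining cells; this is across genes, which are not independent replicates. TOP2A, the topoisomerase that untangles sister chromatids, stood highest at 453 and 442 CPM. CENPF, a large kinetochore protein, followed at 450 and 434 CPM, and the counting intervals of the pair overlapped, so their order is not resolved. MKI67, which coats mitotic chromosomes and is the Ki-67 proliferation antigen, came next at 251 and 244 CPM. Of the 35 neighbouring pairs in this order, 16 kept their order in both libraries with 95% Poisson counting intervals that did not overlap; in ALB-high cells this held for 3 pairs. Intervals of counts cover counting error only.

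At the bottom of the order stood CCNB2 and UBE2C. UBE2C encodes the ubiquitin-conjugating enzyme that works with the anaphase-promoting complex, and CCNB2 encodes cyclin B2, a partner of CDK1. UBE2C (ENSG00000175063, chr20:45812576-45816957 on GRCh38) gave 17 UMIs in replicate 1 and 14 in replicate 2 over all cells, or 0.20 and 0.25 CPM. CCNB2 (ENSG00000157456, chr15:59105078-59125045) gave 41 and 30 UMIs, or 0.48 and 0.53 CPM. Both were low in every class. In ALB-high cells UBE2C gave 2 and 0 UMIs and CCNB2 gave 0 and 1, where 3 counts would equal 0.43 and 0.54 CPM. In mesenchymal-like cells UBE2C gave 3 and 3 UMIs and CCNB2 gave 7 and 10, and in remaining cells they gave 12 and 11, and 34 and 19. Genes with closely related products were abundant: CCNB1, the other B-type cyclin of mitosis, stood at 149 and 147 CPM, and UBE2S, which extends the chains that UBE2C starts, at 191 and 198 CPM. SGO1, the third lowest member, stood at 14.4 and 14.9 CPM. Among 78 other mitotic genes listed alongside the members, PIMREG was similarly close to 0, with 3 UMIs and 3 UMIs over the classes of replicates 1 and 2. PIMREG was singled out after its values were seen. The annotation and the counting of reads at 3′ ends are not known here, so these near-0 counts may not reflect the genes' expression, and their cause was not tested.

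Between classes, ALB-high cells had lower levels of every mitotic gene that could be tested, while mesenchymal-like and remaining cells differed by small amounts. UMIs were summed by library and class and fitted with edgeR's quasi-likelihood test, and a gene was called at a Benjamini-Hochberg adjusted p under 0.05 over 17179 genes. Of the members, 34 were tested; UBE2C and CCNB2 did not pass the filter on low counts. Against remaining cells, 34 of 34 were lower in ALB-high cells and 0 higher, with a median log2 fold change of -1.37 (all genes: -0.01). The background was high: 55.7% of all genes tested were called, 28.0% of genes higher and 27.7% lower. In mesenchymal-like cells 19 of 34 were lower than in remaining cells, 1 was higher and 14 were not called, with a median of -0.15 (all genes: -0.00), where 27.4% of all genes were called, 14.1% of genes higher and 13.3% lower. The count of 19 was 12 with the top 30% as mesenchymal-like, 9 in thinned cells and 7 with DESeq2. The thinned fit cut the classes again from the thinned counts, so depth and class membership changed together. AURKA, CCNB1, PLK1, CENPA, CENPF and TPX2 were lower and SHCBP1 higher in each fit tried. Mesenchymal-like cells were higher than ALB-high cells for 34 of 34, with a median of 1.20 (all genes: 0.02). In that contrast 56.5% of genes were called, 28.9% of genes higher and 27.6% lower. The contrasts share class sums, so they are not independent of each other. Taken in each library alone, the median log2 ratio of CPM for ALB-high against remaining cells was -1.36 and -1.65, and for mesenchymal-like against remaining cells -0.19 and -0.10.

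Depth and mitochondrial share moved with the classes. ALB-high cells had median depths of 20657 and 12441 UMIs and median mitochondrial shares of 13.5% and 13.7%, against 17821 and 10414 UMIs and 8.84% and 8.98% in remaining cells. With cells thinned to 4000 UMIs and classes cut again, the 34 members were lower in ALB-high cells with a median of -1.35. With cells limited to 15% mitochondrial UMIs the median was -1.26, again with 34 of 34 called. Scaled by library totals in place of TMM, the median of all genes shifted to -0.14 in that contrast, and 3652 genes were called higher and 6315 lower, against 4807 and 4760 with TMM. The members' median was then -1.51. Sums cannot tell fewer dividing cells from less RNA of these genes per dividing cell. The counts per cell given further on depend on both as well.

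**Figure D2:**
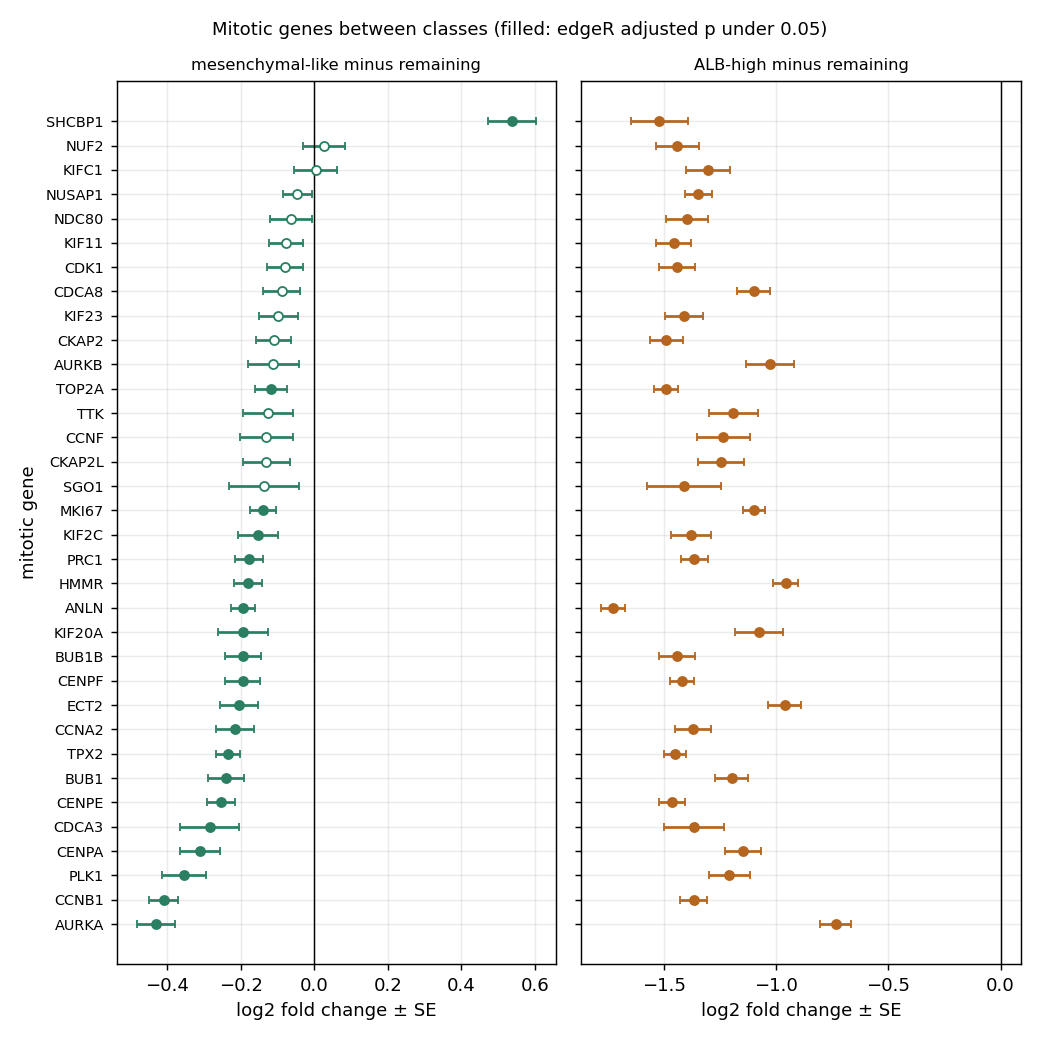
Log2 fold change (± SE) of the 34 tested mitotic genes, in mesenchymal-like minus remaining cells and in ALB-high minus remaining cells, from edgeR on 6 sums; filled points have an adjusted p under 0.05. In the first panel 20 genes are filled and SHCBP1 alone is called higher; in the second all 34 are filled, from AURKA at -0.73 to ANLN at -1.73.

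Of the 9 genes in the group of mitotic cyclins and kinases, which also holds CDCA8, a gene of neither kind, 8 were tested. CCNB1, cyclin B1, stood at 63.7 and 50.7 CPM in ALB-high cells, 123 and 128 CPM in mesenchymal-like cells and 165 and 164 CPM in remaining cells. The 3 classes did not overlap. Its log2 fold change was -1.37 ± 0.06 (SE) in ALB-high and -0.41 ± 0.04 in mesenchymal-like cells, each against remaining cells (edgeR adjusted p = 7.3e-18 and 2.5e-09). AURKA, the kinase of spindle poles and centrosome maturation, stood at 51.6 and 45.3 CPM in ALB-high, 63.2 and 71.9 CPM in mesenchymal-like, and 88.9 and 89.8 CPM in remaining cells. It had the smallest fall of any member in ALB-high cells, at -0.73 ± 0.07, and the lowest fold change of any in mesenchymal-like cells, at -0.43 ± 0.05 (edgeR adjusted p = 2.9e-10 and 1.4e-07). Mesenchymal-like cells exceeded ALB-high cells by 0.30 ± 0.08 for AURKA (adjusted p = 0.0018), a call lost with an ALB limit of 25, a mitochondrial limit of 15% and in thinned cells (adjusted p = 0.065, 0.080 and 0.66). PLK1, polo-like kinase 1, stood at 35.9 and 41.0 CPM in mesenchymal-like cells and 47.0 and 49.6 CPM in remaining cells, a change of -0.35 ± 0.06 (adjusted p = 3.1e-05). CCNA2 was also lower in mesenchymal-like cells, and CDK1, AURKB, CDCA8 and CCNF were not called there.

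Of the 4 checkpoint and cohesion genes, BUB1B, the checkpoint protein BubR1, was highest. It stood at 27.1 and 21.6 CPM in ALB-high, 65.2 and 65.2 CPM in mesenchymal-like, and 75.0 and 72.1 CPM in remaining cells. Its log2 fold change was -1.44 ± 0.08 in ALB-high and -0.19 ± 0.05 in mesenchymal-like cells (edgeR adjusted p = 2.5e-15 and 0.0038). BUB1 was lower in both classes, and TTK and SGO1 were called in ALB-high cells but not in mesenchymal-like cells. SGO1, shugoshin, which shields centromeric cohesin, stood at 6.41 and 4.14 CPM in ALB-high cells against 15.4 and 16.3 CPM in remaining cells.

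The 5 centromere and kinetochore genes link chromosomes to spindle microtubules. CENPF stood at 175 and 150 CPM in ALB-high, 421 and 429 CPM in mesenchymal-like, and 487 and 475 CPM in remaining cells, with no overlap between classes. The changes were -1.42 ± 0.05 and -0.20 ± 0.05 (edgeR adjusted p = 3.8e-19 and 0.0020). CENPE and CENPA, the kinetochore motor and the centromeric histone H3 variant, were lower in mesenchymal-like cells as well. NUF2 and NDC80, subunits of the complex that grips microtubules, were not called between those classes: NUF2 stood at 55.4 and 51.7 CPM in mesenchymal-like and 51.8 and 52.7 CPM in remaining cells, ranges that overlap, with a log2 fold change of 0.02 ± 0.06 (adjusted p = 0.80).

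Of the 5 kinesin motors, 2 (KIF20A and KIF2C) were lower in mesenchymal-like than in remaining cells. In thinned cells, with classes cut again, KIF2C stood at 0.029 (edgeR adjusted p = 0.91), so its call and direction did not hold there. KIF11, the motor that pushes spindle poles apart, stood at 28.8 and 24.1 CPM in ALB-high, 78.0 and 76.7 CPM in mesenchymal-like, and 80.6 and 80.8 CPM in remaining cells. Its log2 fold change in ALB-high cells was -1.46 ± 0.08 (edgeR adjusted p = 6.1e-16), while its value in mesenchymal-like cells was -0.08 ± 0.05 (adjusted p = 0.25). KIFC1, a minus-end motor that clusters poles, stood at 41.5 and 42.9 CPM in mesenchymal-like and 41.6 and 41.4 CPM in remaining cells, with a log2 fold change of 0.00 ± 0.06 (adjusted p = 0.98).

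The 6 spindle microtubule proteins were among the more abundant members. TPX2, which activates AURKA and nucleates microtubules near chromatin, stood at 88.9 and 74.5 CPM in ALB-high, 212 and 216 CPM in mesenchymal-like, and 252 and 244 CPM in remaining cells. The changes were -1.45 ± 0.05 and -0.24 ± 0.03 (edgeR adjusted p = 1.9e-20 and 2.1e-06). HMMR, a microtubule-binding hyaluronan receptor, stood at 67.8 and 65.3 CPM in ALB-high, 120 and 138 CPM in mesenchymal-like, and 141 and 145 CPM in remaining cells, and its fall in ALB-high cells, -0.96 ± 0.06 (adjusted p = 7.3e-15), was among the 3 smallest. PRC1, which bundles midzone microtubules, was lower in mesenchymal-like cells, and NUSAP1, CKAP2 and CKAP2L were not called there.

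The 3 cytokinesis genes differed among themselves. ANLN, anillin, the scaffold of the contractile ring, stood at 69.4 and 61.9 CPM in ALB-high, 207 and 221 CPM in mesenchymal-like, and 243 and 238 CPM in remaining cells. It had the largest fall of any member in ALB-high cells, -1.73 ± 0.05 (edgeR adjusted p = 1.2e-21). SHCBP1, a protein of the central spindle and midbody, was the 1 member higher in mesenchymal-like than in remaining cells. It stood at 9.12 and 7.37 CPM in ALB-high, 37.8 and 40.0 CPM in mesenchymal-like, and 26.35 and 26.39 CPM in remaining cells, with no overlap. Its log2 fold change was 0.54 ± 0.06 in mesenchymal-like and -1.52 ± 0.13 in ALB-high cells, each against remaining cells, and 2.06 ± 0.13 between mesenchymal-like and ALB-high cells (edgeR adjusted p = 1.4e-07, 2.0e-11 and 3.3e-14). ECT2, the exchange factor that switches on RhoA at the cell equator, stood at 44.2 and 32.7 CPM in ALB-high and 84.5 and 82.8 CPM in remaining cells, a change of -0.96 ± 0.07 (adjusted p = 5.0e-12).

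CDCA3, an adaptor of a ubiquitin ligase that promotes mitotic entry, was tested as the other ubiquitin gene. It stood at 6.98 and 8.63 CPM in ALB-high, 17.1 and 19.7 CPM in mesenchymal-like, and 21.6 and 22.3 CPM in remaining cells, with changes of -1.37 ± 0.13 and -0.29 ± 0.08 (edgeR adjusted p = 6.1e-10 and 0.0080). TOP2A (chr17:40388516-40417950) stood at 162 and 150 CPM in ALB-high, 441 and 459 CPM in mesenchymal-like, and 489 and 477 CPM in remaining cells. Its log2 fold change was -1.49 ± 0.05 in ALB-high cells (adjusted p = 4.6e-20), and its value in mesenchymal-like cells, -0.12 ± 0.04, was just past the threshold (adjusted p = 0.048). MKI67 stood at 122 and 101 CPM, 238 and 251 CPM, and 269 and 262 CPM in the same classes.

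The number of the 36 genes with a UMI was counted in each cell. This number depends on how much RNA of each gene a cell holds, so it cannot tell fewer dividing cells from lower levels either. Each cell was thinned to 4000 UMIs, and shallower cells were left out (1 and 4 ALB-high, 6 and 21 mesenchymal-like, 57 and 57 remaining). At least 10 members were seen in 14.5% of ALB-high cells in replicate 1, or 44 of 303 (10.8 to 19.0%, exact Clopper-Pearson at 95%), and 11.0% in replicate 2, or 43 of 391 (8.07 to 14.5%). The share was 27.2% (24.3 to 30.2%) and 29.7% (26.8 to 32.7%) in mesenchymal-like cells. In remaining cells it was 34.4% (32.8 to 36.1%) and 35.3% (33.7 to 36.9%). At this depth the order was the same in both libraries and the intervals of the 3 classes did not overlap within either. These intervals cover only the sampling of cells within a library, and cells are not replicates of a class. At 8000 UMIs ALB-high cells stayed lowest (19.5% and 19.6%). Mesenchymal-like cells then stood at 39.1% and 53.2% against 45.8% and 51.4% in remaining cells, so the order of those classes turned over in replicate 2. The cells compared changed too. Replicate 2 kept 645 of 967 mesenchymal-like and 2714 of 3520 remaining cells at that depth, and replicate 1 kept 857 of 889 and 3127 of 3259. The part of this uneven loss in the turnover was not tested. At 4000 UMIs the means were 12.8 ± 2.49%, 28.4 ± 1.78% and 34.9 ± 0.57% (SD, n = 2), without a test. Unthinned, the shares were 30.3% and 23.8%, 48.8% and 47.3%, and 56.9% and 51.5%. Cells with none of the 36 made up 42.2% and 46.3% of ALB-high, 22.8% and 19.3% of mesenchymal-like, and 16.6% and 16.0% of remaining cells. Cells with 8 to 12 members, close to the limit, were 14.2% and 14.8% of all cells.

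**Figure D3:**
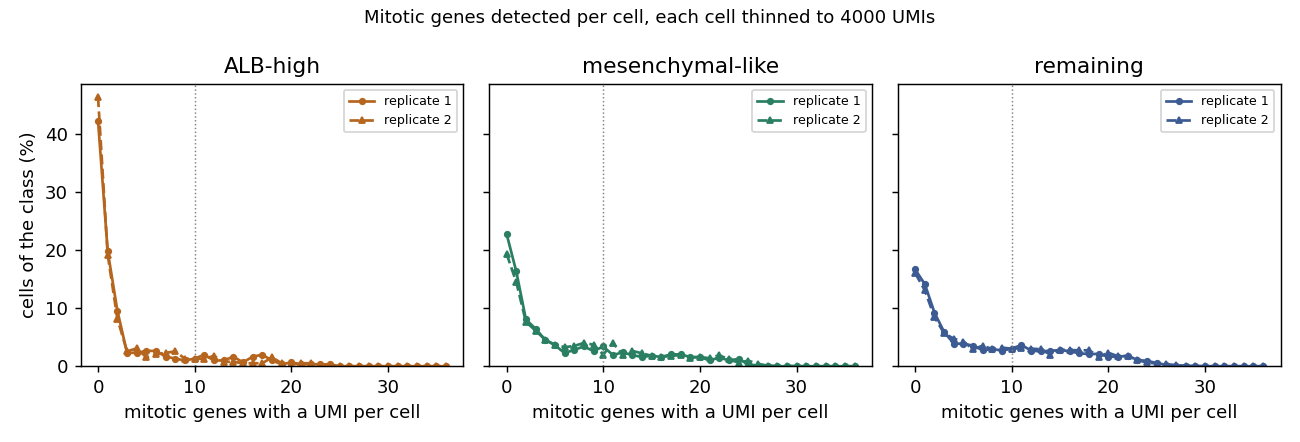
Percent of cells of a class (vertical) by the number of the 36 mitotic genes with a UMI (horizontal) after thinning to 4000 UMIs; solid lines are replicate 1, dashed lines replicate 2, and the dotted line marks 10 genes. ALB-high cells pile up at 0 (42.2% and 46.3%), and the curves fall off without a gap at 10.

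The ALB-high cells with at least 10 members kept hepatocyte transcripts at a lower level. In thinned counts ALB stood at 12511 and 12093 CPM in these cells, against 21802 and 19102 CPM in ALB-high cells with fewer members. The other 16 hepatocyte markers summed to 7642 and 7326 CPM against 15046 and 13883 CPM. In remaining cells with at least 10 members those 16 markers summed to 636 and 624 CPM. Median depth moved with this: 25243 and 15916 UMIs in the ALB-high cells with at least 10 members, against 20288 and 12167 UMIs in the others. Depth is also higher in remaining cells with at least 10 members, at 21732 and 12512 UMIs against 16646 and 9752 UMIs. Droplets with a pair of cells were not identified. With the cells of the top 4% of doublet scores removed, the ALB-high share was 13.8% and 10.4%, but how well these scores mark pairs is not known. The part of depth and of shared droplets in these levels was not tested.

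Single genes followed the count of the others closely. In cells with 0 of the other members, a TOP2A UMI was seen in 5.68% and 6.48% of thinned cells, and in cells with 15 or more it was seen in 96.2% and 95.2%. For PLK1 the values were 0.231% and 0.646%, and 42.9% and 42.4%. Cells with 0 of the others were picked for low mitotic counts, so the low shares are no measure of free RNA, which was not estimated. Genes differed in how their level with 5 to 9 other members compared with that at 15 or more. In cells with 5 to 9 other members, AURKA stood at 34.3 and 31.2 CPM, and in cells with 15 or more at 245 and 276 CPM, a ratio of 0.140 and 0.113. This ratio does not show where a gene first appeared. AURKA had a UMI in 5.05% and 4.35% of cells with 0 of the others. CENPA had ratios of 0.119 and 0.135, and PLK1 of 0.122 and 0.133. SHCBP1 lay at the other end with 0.441 and 0.433, and PRC1 with 0.364 and 0.390. The ratios kept these genes apart in both libraries. These genes were singled out after their values were seen.

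Among cells with at least 10 other members, AURKA was not lower in ALB-high cells: it stood at 198 and 304 CPM there, from 34 and 51 UMIs in 43 and 42 cells, against 183 and 204 CPM in remaining and 139 and 161 CPM in mesenchymal-like cells. SHCBP1 kept the order seen in the sums, with 28.4 and 23.3 CPM in ALB-high (5 and 4 UMIs), 73.4 and 74.0 CPM in mesenchymal-like, and 51.4 and 50.2 CPM in remaining cells. TOP2A stood at 857 and 908 CPM in ALB-high, 1114 and 1123 CPM in mesenchymal-like, and 1045 and 1029 CPM in remaining cells of this kind. For CENPF the values were 763 and 795, 1062 and 1035, and 1002 and 1023 CPM. The gap between ALB-high and remaining cells for TOP2A and CENPF was smaller among these cells than in the sums over whole classes. These cells were picked by the same family of genes, so the values are a description.

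Transcripts of 58 S phase and DNA replication genes were highest in cells with an intermediate number of mitotic genes. Thinned cells with none of the 36 had a mean of 3.57 and 3.93 S phase UMIs. Cells with 5 to 9 had 15.6 and 15.4, cells with 10 to 14 had 15.4 and 15.7, and cells with 20 or more had 10.1 and 9.91. The mean count of mitotic UMIs goes up over the same bins by construction, from 0 to 51.6 and 51.2. Both libraries gave the same shape. The bins with 20 or more held 325 and 378 cells.

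**Figure D4:**
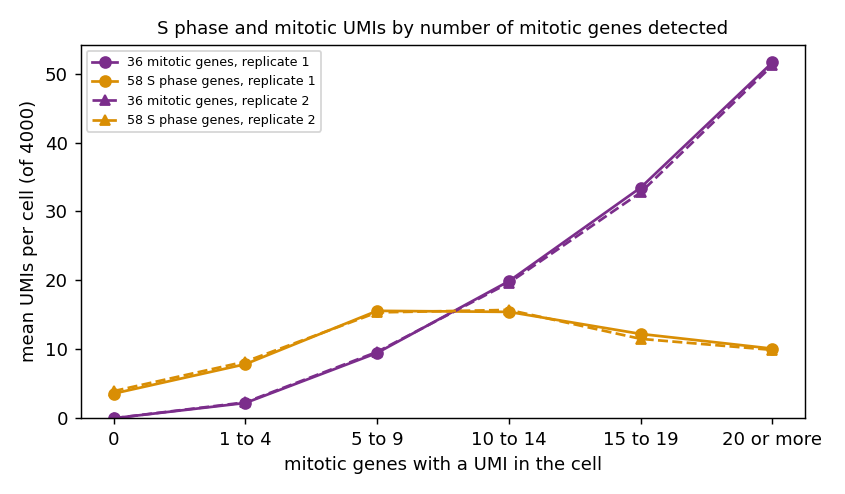
Mean UMIs per cell (of 4000) from the 36 mitotic genes and from 58 S phase genes, by number of mitotic genes with a UMI; circles are replicate 1 and triangles replicate 2. The S phase line is highest at 5 to 14 mitotic genes, at 15.4 to 15.7 UMIs, and lies at 10.1 and 9.91 UMIs at 20 or more.

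Over cells, the members were correlated with each other in every class. Pearson's r was taken on ln(1 + UMIs per 10000) over pairs of genes seen in at least 1% of cells. Over all cells this kept 34 genes and left out CCNB2 and UBE2C. The median over 561 pairs was 0.60 in replicate 1 (4454 cells) and 0.50 in replicate 2 (4894 cells). Within classes it was 0.64 and 0.53 in ALB-high, 0.61 and 0.50 in mesenchymal-like, and 0.59 and 0.50 in remaining cells. CCNB2 passed the limit in mesenchymal-like cells of replicate 2 and in remaining cells of replicate 1, which then had 595 pairs, 15 and 32 of them negative; elsewhere no pair was negative. In thinned cells the median over all cells was 0.28 and 0.27, so the size of r depends on the UMIs per cell, which the genes of a cell share. TOP2A and MKI67 formed the highest pair (0.85 and 0.81). SGO1 and KIF20A formed the lowest (0.22 and 0.17), and both are sparse. By mean r with the other members, TOP2A (0.70 and 0.63), MKI67 (0.69 and 0.61) and TPX2 (0.68 and 0.61) stood highest, and SGO1 (0.38 and 0.31), SHCBP1 (0.44 and 0.32) and KIF20A (0.45 and 0.37) lowest.

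The members differed in how they went with S phase transcripts over cells. CDK1 had r of 0.48 and 0.47 with the S phase score, ANLN 0.48 and 0.44, TOP2A 0.41 and 0.39, and MKI67 0.40 and 0.38. AURKA had 0.11 and 0.10, PLK1 0.06 and 0.04, CENPA 0.05 and 0.04, CCNB1 -0.04 and -0.04, and KIF20A -0.06 and -0.04. The order was alike in the libraries. AURKA, CCNB1, PLK1 and CENPA, which had the 4 lowest fold changes in mesenchymal-like cells, all lay near 0 on this scale. Not every gene low on this scale went with them. KIF20A was called lower in mesenchymal-like cells in 5 of 13 fits, and CCNF (r of 0.12 in replicate 1) in 0 of 13. The link was picked out after the values were seen and was not tested. The score of all members had an r with the S phase score of 0.32 and 0.31 over all cells, 0.55 and 0.51 in ALB-high, 0.30 and 0.31 in mesenchymal-like, and 0.30 and 0.27 in remaining cells. Its r with log UMIs per cell was 0.30 and 0.30.

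**Figure D5:**
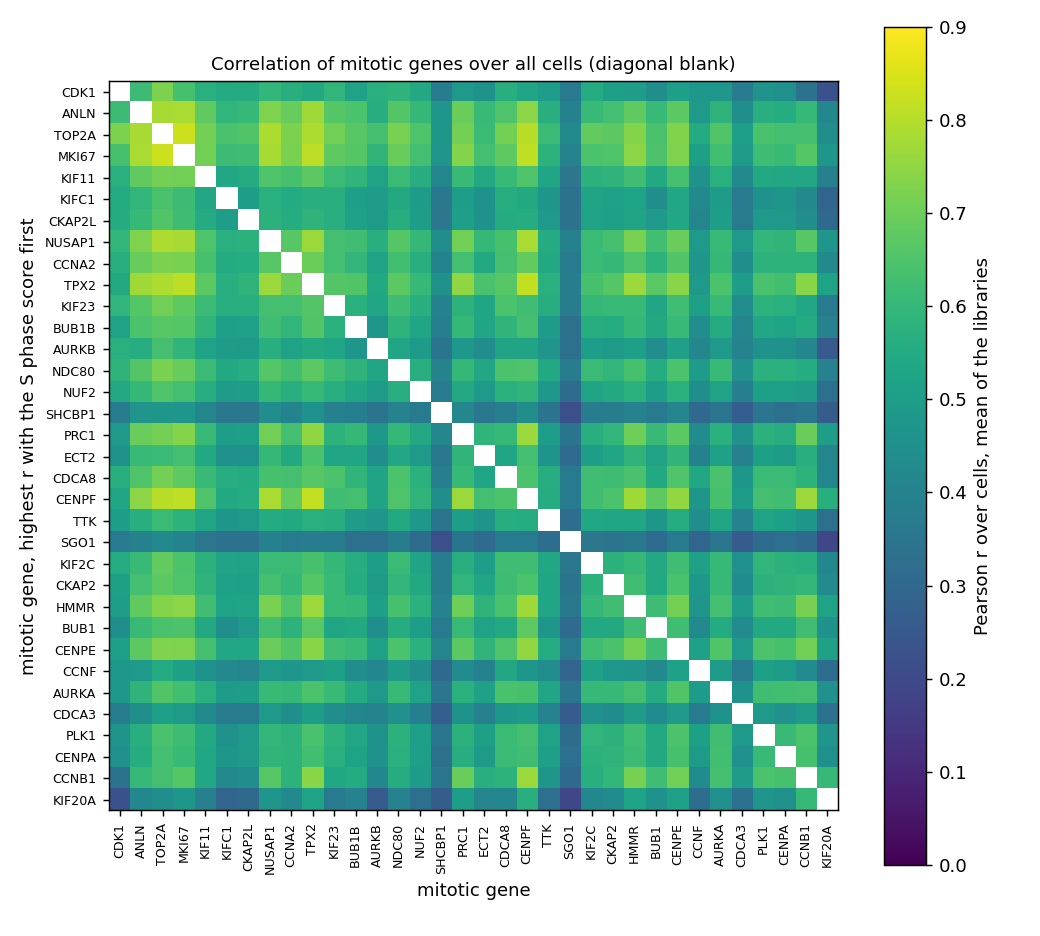
Pearson's r over all cells between 34 mitotic genes (mean of the libraries, colour from 0 to 0.9), with genes on both axes ordered by their r with the S phase score from CDK1 down to KIF20A. TOP2A, MKI67, CENPF and TPX2 form bright bands, and the rows of SGO1 and SHCBP1 are dark.

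Of 16005 genes outside the list, the 10 whose level over cells was most like the members' score were ASPM (r of 0.85 and 0.80), DLGAP5 (0.81 and 0.77), KNL1 (0.83 and 0.75), KIF20B (0.81 and 0.75), CKS2 (0.80 and 0.76), HMGB2 (0.80 and 0.76), KIF14 (0.82 and 0.74), UBE2S (0.79 and 0.76), GTSE1 (0.81 and 0.74) and PBK (0.81 and 0.74). ASPM and DLGAP5 are spindle proteins, KNL1 is a kinetochore scaffold, KIF14 and KIF20B are kinesins, CKS2 is a CDK-binding protein and HMGB2 a chromatin protein. All 10 were on the list of 78 other mitotic genes, as were 52 of the top 100. Of those 100, 2 were S phase genes and 46 were on none of the lists. The lists were chosen with earlier results of these data known, so this overlap is a description and not a test. The most negative were NEAT1, a nuclear long non-coding RNA (-0.45 and -0.45), and GPC6, a glypican (-0.42 and -0.40).

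Other mitotic genes, S phase genes, and CDK inhibitors and mitotic brakes were mostly lower in ALB-high cells as well. Genes of transcriptional control went in both directions. Of 77 other mitotic genes tested, 74 were lower than in remaining cells and 0 higher (median log2 fold change -1.14). The lowest were CEP55, a midbody protein, at -1.80 ± 0.08, the kinetochore gene SKA3 at -1.72 ± 0.14 and DLGAP5 at -1.50 ± 0.06. Of 58 S phase genes, 56 were lower and 0 higher (median -0.93), among them the origin-firing factor MCM10 at -1.61 ± 0.15 and UHRF1, which maintains DNA methylation, at -1.53 ± 0.12. Of 23 genes that control mitotic transcription, 12 were lower and 4 higher (median -0.20), beside 27.7% lower and 28.0% higher among all genes. The repressors E2F7 (-1.74 ± 0.11) and E2F8 (-1.08 ± 0.16) and the activator FOXM1 (-1.36 ± 0.12) fell most, and LIN52 and TFDP2, subunits of DREAM and partners of E2F, were higher by 0.33 ± 0.07 and 0.26 ± 0.06, with the NF-Y subunit NFYC at 0.20 ± 0.07. FOXM1 stood at 10.5 and 8.81 CPM in ALB-high and 27.2 and 28.2 CPM in remaining cells. Of 13 CDK inhibitors and mitotic brakes tested, 10 were lower and 1 higher: PKMYT1, the kinase that blocks CDK1, was lowest at -1.59 ± 0.17, with CDKN2D at -0.97 ± 0.14 and GADD45A at -0.75 ± 0.04, and the antiproliferative gene BTG1 was higher by 0.78 ± 0.04, at 183 and 173 CPM against 112 and 117 CPM. 

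In mesenchymal-like cells, mitotic and S phase genes differed in their counts by direction. Of 77 other mitotic genes, 27 were lower than in remaining cells and 5 higher (median -0.10), beside 13.3% lower and 14.1% higher among all genes tested. The lowest were CDC20, the activator of the anaphase-promoting complex, at -0.36 ± 0.05, UBE2S at -0.30 ± 0.04 and the phosphatase CDC25C at -0.29 ± 0.07. The highest were ZWINT at 0.28 ± 0.05, DSN1 at 0.24 ± 0.06, both kinetochore genes, and the condensin subunit NCAPG2 at 0.16 ± 0.04. CDC20 stood at 56.4 and 62.9 CPM in mesenchymal-like and 74.9 and 75.9 CPM in remaining cells. Of 58 S phase genes, 20 were higher and 2 lower (median 0.14): the helicase BLM at 0.42 ± 0.09, MCM10 at 0.37 ± 0.08 and the cyclin CCNE2 at 0.37 ± 0.07 were highest, and TYMS at -0.14 ± 0.05 and RRM2 at -0.10 ± 0.04, both of nucleotide synthesis, were lower. BLM stood at 18.4 and 19.9 CPM against 14.3 and 13.7 CPM. Of the 23 control genes, 1 was higher (RBL1, 0.20 ± 0.06) and 1 lower (E2F5, -0.52 ± 0.12), fewer in each direction than the share among all genes. Of the 13 inhibitors and brakes, 4 were lower, among them CDKN2B at -0.72 ± 0.10, CDKN2A at -0.61 ± 0.04 and CDKN1A at -0.16 ± 0.04, and GADD45A was higher at 0.12 ± 0.03. CDKN2A, which encodes p16 and p14ARF, stood at 73.9 and 85.5 CPM in mesenchymal-like and 118 and 121 CPM in remaining cells. Every value named here as higher or lower had an edgeR adjusted p under 0.05. Against ALB-high cells, mesenchymal-like cells were higher for 71 of 77 other mitotic genes and 56 of 58 S phase genes, and lower for 0 of either. Among all genes tested in that contrast, 28.9% were called higher and 27.6% lower.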

How the data were processed

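Poly(A) RNA of single cells was counted in 2 libraries. The deposited matrices hold UMI counts per gene and barcode that the authors made with Cell Ranger 7.0.0, per the file headers; the submitters' processing notes also name STAR and GRCh38. Not given in the sources used here are the annotation, the treatment of intronic reads and cell calling. The 12 antibody features held 0 UMIs.

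Barcodes with at least 500 genes, 1000 UMIs and at most 25% mitochondrial UMIs were kept (4454 of 4591 and 4894 of 4998); 7 sequences occurred in both libraries. Library totals were 85475317 and 57246647 UMIs. Scrublet (scanpy 1.11.5) marked 13 and 1 cells (0.292% and 0.0204%), too few to rely on, so its calls were not used and doublets stayed in. How well its scores mark doublets is not known. Free RNA was not removed.

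The edgeR 4.0.16 model had 6 sums and 4 coefficients, 1 of them for the library (block), which left 2 residual degrees of freedom, with TMM and filterByExpr. With so few, the variance of each gene was drawn toward a trend over all genes tested. Small p-values therefore rest largely on that pooled spread. Classes were cut from the same counts that were compared; ALB and the 4 mesenchymal genes were left out of gene counts. Each SE is the fold change over the square root of F. On simulated data for mesenchymal-like minus remaining cells (16995 genes), recovery was 32 of 50 genes at a 1.5-fold change, 48 of 50 at 2-fold and 50 of 50 at 4-fold, with 8 false calls. The simulated counts had a fixed dispersion of 0.005. Changes under 1.5-fold, such as the members' median log2 fold change of -0.15 in this contrast, were not simulated. The recovery therefore does not cover calls of that size. Shares use cells thinned to 4000 UMIs with a fixed seed, in the classes cut at full depth. For the thinned fits the classes were cut again from the thinned counts. Alternatives changed class limits, filters, depth, scaling, the block and the tool (DESeq2 1.42.0).

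Genes were named by rule: the highest of each role group, the 3 highest and lowest by level, by fold change in each contrast and by correlation, the 3 called highest and lowest of each other list, and the 10 most similar outsiders; 1 gene that the rule names is not reported here. Members and lists were chosen with earlier results of these data known.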

Additional observations from a re-analysis of the deposited data

How the results depend on the processing

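The fall of mitotic genes in ALB-high cells was called for 34 members under each of 12 alternatives, of 35 or 36 tested in 2 of them. The 19 members lower in mesenchymal-like than in remaining cells became 12 with the top 30% as mesenchymal-like, 9 in cells thinned to 4000 UMIs and 7 with DESeq2. In the thinned setting the classes were cut again, so it does not isolate depth. AURKA, CCNB1, PLK1, CENPA, CENPF and TPX2 were called lower and SHCBP1 higher (0.43 to 0.59) in each of 13 fits, the reported one included. KIF2C, -0.15 as reported for mesenchymal-like minus remaining, turned to 0.029 (adjusted p = 0.91) in thinned cells. AURKA in mesenchymal-like against ALB-high cells was called in 10 of 13 fits, with values of 0.09 to 0.50. Without the replicate block, 17 members were lower and 1 higher in mesenchymal-like cells, and 34 changed in each other contrast; library deviations of the classes had correlations of 0.00, 0.02 and 0.06. Over all genes, thinning gave 969 higher and 756 lower for mesenchymal-like minus remaining (DESeq2: 790 and 735), 2935 and 2779 for ALB-high minus remaining, and 2802 and 2821 for mesenchymal-like minus ALB-high, against 2414 and 2291, 4807 and 4760, and 4969 and 4733; thinned sums hold fewer counts and fewer genes tested. Library totals gave 6630 and 3562 for the last.

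The share with at least 10 members in ALB-high cells, 12.8%, was 9.39% with an ALB limit of 100, 6.35% for 15 members, 22.2% for 5 members, 27.0% at full depth and 19.6% at 8000 UMIs. In mesenchymal-like cells, 28.4% became 16.4%, 44.9%, 48.0% and 46.1% for 15 members, 5 members, full depth and 8000 UMIs, and 31.7% with the top 30%. In remaining cells, 34.9% became 20.5%, 51.2%, 54.2% and 48.6%, 35.6% with an ALB limit of 25 and 35.7% with a mitochondrial limit of 15%. ALB-high cells stayed lowest in each of these settings. Shares at 8000 UMIs cover fewer cells, and the loss was uneven between classes. The median pairwise r in thinned cells, with classes cut again, fell to 0.28, 0.30 and 0.27 in ALB-high, mesenchymal-like and remaining cells. Leaving out each library in turn gave shares of 11.0 to 14.5%, 27.2 to 29.7% and 34.4 to 35.3% and r of 0.53 to 0.64, 0.50 to 0.61 and 0.50 to 0.59 for those classes; calls could not be made with 1 library, which leaves no residual degrees of freedom. With 304 and 395 cells, the ALB-high class gave at most 2 UMIs for UBE2C and CCNB2, so no fold was given for them.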
